A study of Mus musculus with 4 samples.

Results

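The genes described are 4 of the developmental pluripotency-associated (Dppa) family, Dppa2, Dppa3, Dppa4 and Dppa5a, together with Tdh, which encodes threonine dehydrogenase. They were taken by name, and all 5 were found among the 25170 genes of the deposited table. Ribosome footprints, the short RNA pieces that ribosomes shield from a nuclease, were sequenced from 4 libraries of E14 mouse embryonic stem cells, a wild-type line from the inner cell mass. Cells were kept for 3 passages either in the solvent DMSO, as controls (2 libraries), or in 1 µM PD (2 libraries). All cells were grown on gelatin in serum with leukemia inhibitory factor. The labels name the compound only as PD, and the design text sets the comparison up to examine Mek in the regulation of gene expression after transcription. No label says that the replicates were separate cultures, so p-values measure only how far these libraries vary, possibly for technical reasons.

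These genes are used as signs of the pluripotent state in the mouse. Dppa2 and Dppa4 are nuclear proteins with a SAP domain that bind DNA as a pair and prime germline and early embryonic genes for expression. Dppa3, also called Stella or PGC7, protects the maternal genome from demethylation in the zygote and keeps the DNA methylation cofactor Uhrf1 out of chromatin in other cells. Dppa5a, also called Esg1, is a small RNA-binding protein with a KH domain. Tdh is the mitochondrial enzyme that starts the breakdown of threonine, and mouse embryonic stem cells depend on it for glycine and one-carbon units.

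Levels are given in FPKM, a unit that divides the fragments of a gene by its length and by the size of the library, which lets genes be compared. Differences were tested with limma on log2(FPKM + 1) over 9741 genes whose mean reached 1 FPKM, with Benjamini-Hochberg adjustment over all of them and 0.05 as the threshold. The table holds no read counts, and whole reads were recovered from the FPKM steps where these allowed it. The PD libraries were the shallower ones: setting DMSO replicate 1 to 1, the other control reached 1.42, and the PD libraries reached 0.464 (replicate 1) and 0.201 (replicate 2). Depth and treatment therefore cannot be told apart in a low gene. Footprints also cannot separate more mRNA from denser ribosomes, nor fewer expressing cells from less RNA in each. The libraries carried the marks of embryonic stem cells, with all 11 markers tested and Pou5f1 at 228 to 326 FPKM. Of 10 markers of 2-cell-like cells in the table, 7 were listed at 0 in every library, and the summed level of the list was at most 0.21 FPKM. Fibroblast markers summed to 193 and 135 FPKM in the DMSO libraries and to 288 and 269 in the PD libraries, nearly all of it Vim and Fn1, while Lum, Postn and S100a4 were listed at 0 throughout. Primitive endoderm markers summed to 0.468 to 1.81 FPKM and trophectoderm markers to 5.74 to 13.5. The part of other cells in the values below was not tested.

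The footprint levels ranked in the order Dppa5a, Tdh, Dppa4 and then Dppa3 and Dppa2. Dppa5a lay above at least 99.9% of protein-coding genes in each library. Tdh lay above 94.4% to 96.1% of them and Dppa4 above 89.7% to 92.3%. Tdh and Dppa4 did not overlap in FPKM within either group, and Tdh was 1.41-fold to 2.97-fold higher in the same library. Dppa3 lay above Dppa2 in both DMSO libraries and below it in both PD libraries, so the lowest places were the only ones to change hands. None of the 5 genes passed the test between PD and DMSO. By limma, 0 passed after adjustment, 1 (Dppa3) had an unadjusted p under 0.05, and with voom on recovered reads 0 of 4 did. Over all tested genes 0.257% passed, and none of these was protein-coding. An unadjusted p under 0.05 was found for 561 of the 9741 genes by limma and for 524 of 8217 with voom. Dppa2 and Tdh had both PD values above both DMSO values, an arrangement found in 17.5% of all tested genes. Dppa3 and Dppa4 had both below, as 18.3% of all genes did, and Dppa5a overlapped. Dppa2 and Dppa3 met the filter, with means of 1.29 and 1.43 FPKM, only through the group in which they were high, so these counts say nothing about the family. With 2 libraries a group, an exact two-sided permutation test of a single gene cannot give a p below 0.333, the value reached by Dppa2, Dppa3, Dppa4 and Tdh, while Dppa5a gave 0.667 (exact permutation test).

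**Figure D1:**
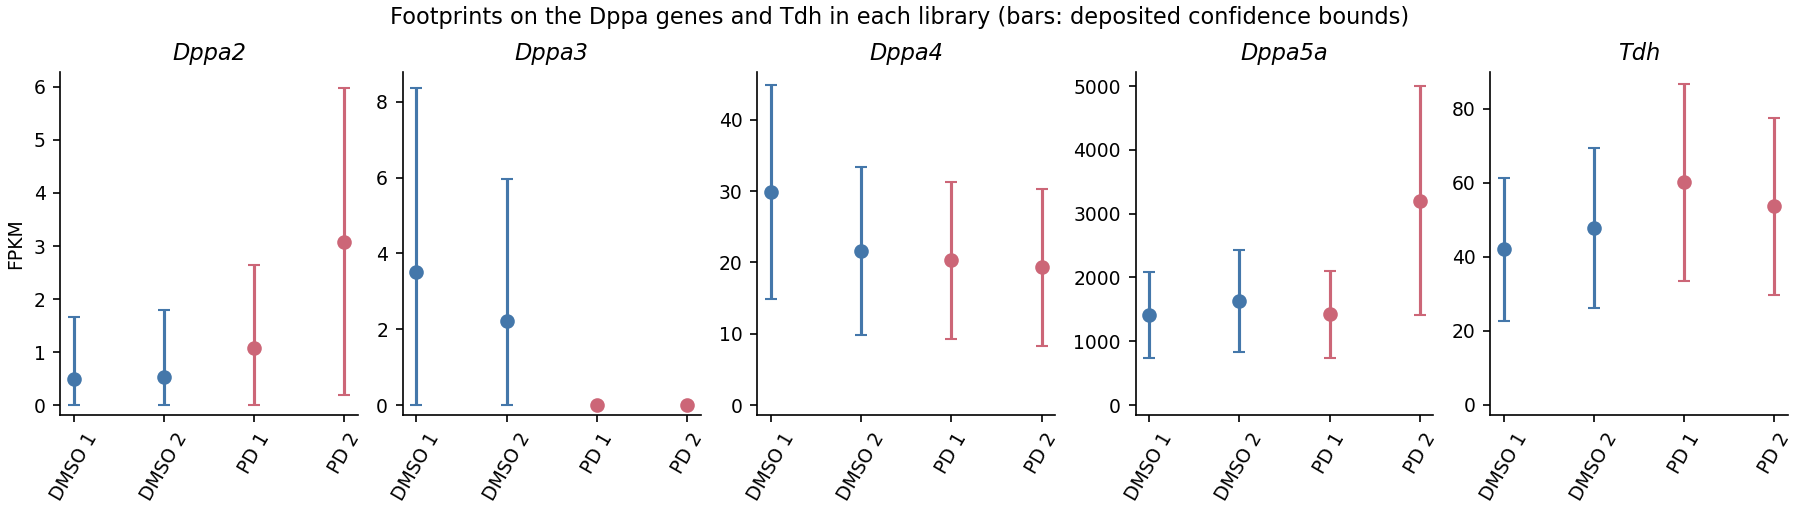
FPKM of Dppa2, Dppa3, Dppa4, Dppa5a and Tdh in each of the 4 libraries (points, DMSO blue and PD red), with the lower and upper confidence bounds of the deposited table as bars; each panel has its own linear scale. Dppa3 is listed at 0 in both PD libraries, and Dppa5a stands apart only in PD replicate 2. For Dppa2, Dppa4, Dppa5a and Tdh the bounds of any pair of libraries overlap. For Dppa3 the DMSO bounds begin at 0 and both PD bounds are 0, so the groups only touch there.

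Dppa2 (mm10, chromosome 16, 48310274 to 48319513) had the lowest footprint level of the 5 genes in the control cells. Its FPKM was 0.497 and 0.526 under DMSO, and under PD it was 1.07 in replicate 1 and 3.08 in replicate 2. Both PD values lay above both DMSO values, and the PD libraries differed more from each other than PD replicate 1 did from the controls. The log2 difference was 0.94 (SE 0.49; 95% interval -0.36 to 2.25; limma adjusted p = 0.837). Behind these values stood 4 and 6 recovered reads under DMSO against 4 and 5 under PD. The number of reads was thus nearly the same in every library while depth differed 7.03-fold, and FPKM was highest in the shallowest library. The part of depth in this was not tested. Pooled within groups, the read rate in PD was 3.27 times that in DMSO, with an exact 95% interval from 1.18 to 8.95 that covers counting error only. Recovery gives the lowest set of whole numbers that matches, and a multiple of that set would match as well. Without PD replicate 2 the log2 difference was 0.45, and without PD replicate 1 it was 1.43.

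Dppa4, the partner of Dppa2, is its neighbour on the same chromosome (chromosome 16, 48283735 to 48294292) and had a far higher level. Its FPKM was 29.8 and 21.6 under DMSO, against 20.3 and 19.3 under PD. The values other than DMSO replicate 1 spanned 2.31 FPKM, and the groups did not overlap. The group levels were 25.7 ± 5.8 FPKM under DMSO and 19.8 ± 0.675 under PD (SD, n = 2). The log2 difference was -0.35 (SE 0.28; 95% interval -1.09 to 0.40; limma adjusted p = 0.859). The reads behind these values numbered 184, 189, 58 and 24. From the pooled reads, the rate in PD was 0.799 of that in DMSO, with an exact 95% interval from 0.621 to 1.02 for counting error. Without DMSO replicate 1 the log2 difference was -0.12, and without DMSO replicate 2 it was -0.57. Dppa4 exceeded Dppa2 by 60-fold and 41.1-fold in the DMSO libraries and by 18.9-fold and 6.27-fold in the PD libraries, ratios that rest on the few reads of Dppa2. The partners thus had unequal footprint levels in every library, and their group differences had opposite signs, neither of which passed.

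Dppa3 (chromosome 6, 122626424 to 122630271), which lies between Gdf3 and Nanog, was the member with the largest log2 difference. Under DMSO it had 3.5 and 2.23 FPKM, and the table lists it at 0 for each PD library. On the log2(FPKM + 1) scale the difference was -1.93 (SE 0.40; 95% interval -3.01 to -0.85; limma fit across all genes, adjusted p = 0.689). The SE draws on 2 identical values of 0. The DMSO values correspond to 10 and 9 reads, recovered from 2 libraries only but matching whole numbers within 2.19e-05 reads. At the depth of the PD libraries, 3 reads of Dppa3 would be worth 2.27 FPKM in PD replicate 1 and 5.22 FPKM in PD replicate 2. The second of these is above both DMSO values, so a level like that of the controls was hardly detectable in PD replicate 2. At the pooled DMSO rate, 5.23 reads would be due in the PD libraries together, against 0 listed. With counting error alone, the upper 95% limit of the pooled PD rate was 0.778 of the DMSO rate. With voom on recovered reads the log2 difference was -2.31 (adjusted p = 0.795).

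Why genes were listed at 0 was not tested, and a listed 0 may not be a lack of reads. The estimates of 1 gene of the 25170 were not all marked OK by the authors, and that gene was not Dppa3. Ahcy, a methyl cycle enzyme that all cells use, was listed at 0 in 3 libraries, and the DNA glycosylase gene Tdg in all 4. Among 8863 tested protein-coding genes, 28, Dppa3 among them, were above 0 in both DMSO libraries and at 0 in both PD libraries, and 3 had the reverse. Each of these met the filter only through the group in which it was above 0, and the PD libraries were the shallower ones. The counts therefore say nothing about a direction. RefSeq (GRCm38.p6) lists a processed copy, Dppa3-ps, on chromosome X (37625380 to 37626197), and the labels and headers do not say how reads matching both were counted. Germ cell markers, among which Dppa3 is often placed, differed in both directions. Over 8 such genes the summed level was 42.8 and 43.9 FPKM in DMSO and 55.5 and 58.3 in PD, and none was listed at 0 in all libraries, although Nanos3, at 2.2 and 0.311 FPKM under DMSO, was listed at 0 in both PD libraries. Of the 7 tested, 3 (Dnd1, Kit and Dazl) had both PD values above both DMSO values and 1 (Prdm1) had both below, against 17.5% and 18.3% of all genes. Dazl met the filter only through the PD libraries. None of the 7 passed, with 1 at an unadjusted p under 0.05 by limma (561 of 9741 over all genes) and 2 with voom for 6 (524 of 8217). Dnd1, an RNA-binding protein of the germ line, had 10.9 and 13.6 FPKM in DMSO and 22 and 22.8 in PD. Kit had 9.97 and 8.2 FPKM in DMSO and 17.1 and 13.6 in PD, and Dnd1 and Kit rose most in FPKM. The PD mean was below the DMSO mean for Prdm1, Tfap2c, Ddx4 and Nanos3 and above it for the other markers.

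**Figure D2:**
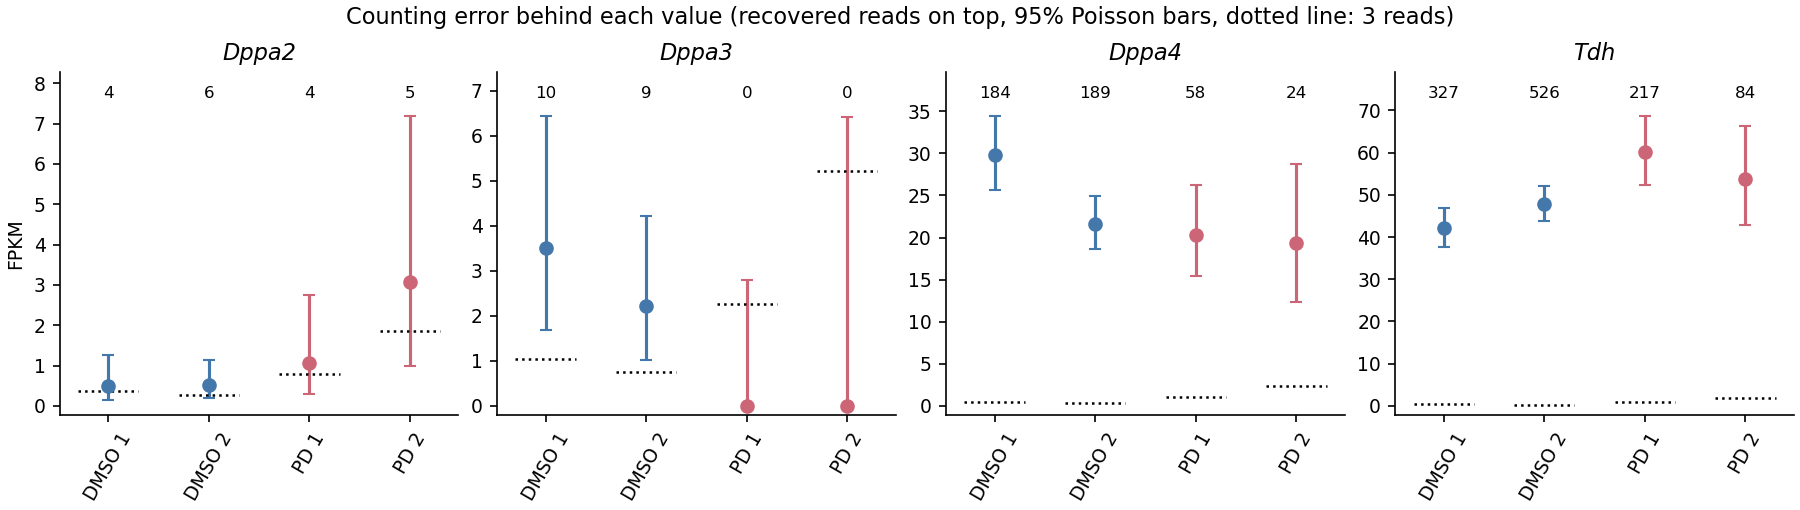
FPKM of the 4 genes with recovered whole reads in each library (points, DMSO blue and PD red), with exact 95% Poisson intervals for counting error as bars, the recovered reads printed at the top and the FPKM that 3 reads would be worth as a dotted line. Dppa2 rests on 4 to 6 reads in every library and Dppa3 on 10 and 9 reads in the DMSO libraries, whereas Dppa4 has 24 to 189 reads and Tdh 84 to 526.

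Dppa5a (chromosome 9, 78367054 to 78368199) carried more footprints per length than the other 4 genes combined. Its FPKM was 1414 and 1633 under DMSO, and under PD it was 1421 in replicate 1 and 3203 in replicate 2. PD replicate 1 lay 6.67 FPKM above DMSO replicate 1, and only PD replicate 2 stood apart. The log2 difference was 0.49 (SE 0.49; 95% interval -0.83 to 1.81; limma adjusted p = 0.873). Its sign rested on PD replicate 2: without that library the log2 difference was -0.10, without PD replicate 1 it was 1.08, and with quantile normalization it was -0.05. The deposited bounds, 1403 to 5002 FPKM in PD replicate 2 and 737.8 to 2090 in DMSO replicate 1, overlapped. No whole reads were recovered for Dppa5a, for which a smallest count of up to 200 reads was tried. RefSeq lists the pseudogenes Dppa5b (78245487 to 78246600) and Dppa5c (78271935 to 78273046) on the same chromosome, which were not analysed here. Reads that match them as well as Dppa5a may be counted in its value, so its level is uncertain. Ooep, its KH-domain relative next to it on the chromosome, did not share the high value in PD replicate 2, with 60.4 and 45.2 FPKM in DMSO and 67.6 and 45.9 in PD.

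Other KH-domain genes and their partners in the maternal complex of the oocyte were covered in part. Of 9 such genes, 4 were listed at 0 in every library and 4 were tested. Their median log2 difference was 0.44, against -0.02 over all tested genes. It lay between Khdc3 (1.18) and Tle6 (0.78) on one side and the remaining genes (0.09 and 0.03) on the other. It stayed above 0 in all 14 alternatives, between 0.09 and 1.08, but these draw on the same libraries. The lowest value came without a filter and the highest with voom on the 3 genes with recovered reads, so these 2 medians cover other sets of genes. Both PD values were above both DMSO values for 1 gene (25%, against 17.5% of all genes) and below for 0 (against 18.3%), and 3 overlapped. None passed, and none had an unadjusted p under 0.05 (limma, or voom for the 3 with recovered reads). Khdc3, a KH-domain protein of the oocyte and of genome stability in stem cells, had 8.17 and 16.6 FPKM in DMSO and 19.4 and 39.5 in PD. Both PD values were the higher, although PD replicate 1 was closer to DMSO replicate 2 than to its own replicate. The co-repressor Tle6 had 0.542 and 3.59 FPKM in DMSO and 4.67 and 2.69 in PD, so its groups overlapped.

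Tdh (chromosome 14, 63492347 to 63509092) had the most even values of the set. Its FPKM was 42.1 and 47.8 under DMSO, against 60.2 and 53.7 under PD. Both PD values lay above both DMSO values, by at least 5.89 FPKM. The group levels were 44.9 ± 4.03 FPKM under DMSO and 56.9 ± 4.62 under PD (SD, n = 2). The log2 difference was 0.34 (SE 0.25; 95% interval -0.32 to 0.99; limma adjusted p = 0.839). It was the best counted member with recovered reads, with 327, 526, 217 and 84. From the pooled reads, the rate in PD was 1.28 times that in DMSO, with an exact 95% interval from 1.12 to 1.46 for counting error. At the deposited scaling, which this interval takes as exact, the difference was beyond counting error but did not pass against the spread between libraries. With libraries rescaled without small RNA genes, the log2 difference of Tdh was 0.23. The difference kept its sign in each of 14 alternatives, between 0.23 and 0.43. RefSeq lists a long noncoding RNA, Gm17232, within the Tdh locus (63493656 to 63502900), and the use of strand in counting was not stated in the labels or headers.

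**Figure D3:**
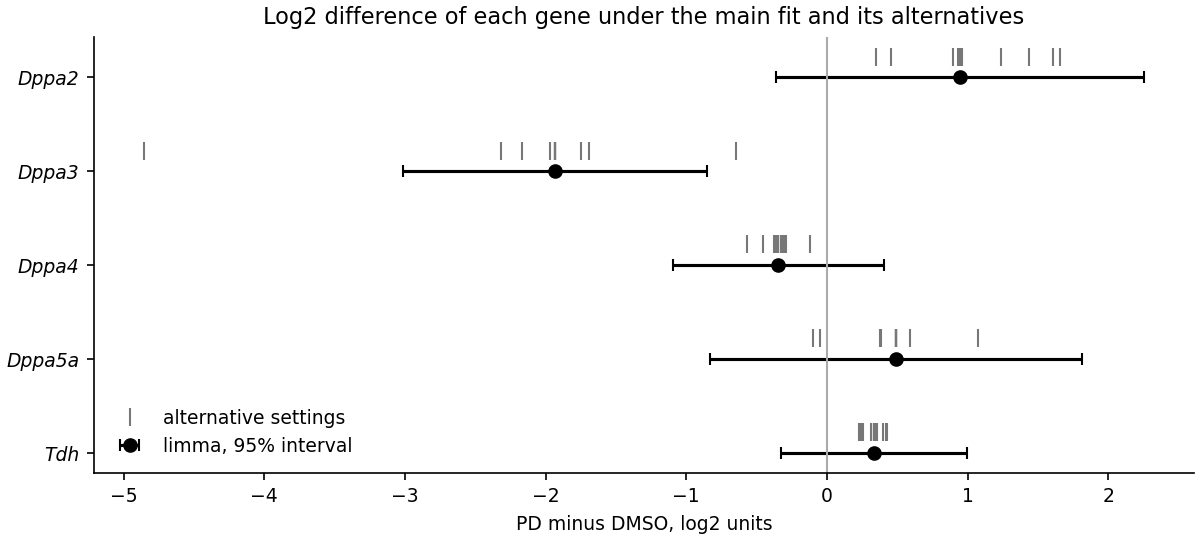
Log2 difference between PD and DMSO for each gene from limma on log2(FPKM + 1) (black points, bars are 95% intervals), with the values under each alternative setting as grey ticks; the ticks include other pseudocounts and voom, whose scales differ from that of the points. The interval of Dppa3 is the only one that leaves out 0, and Dppa5a is the only gene whose alternatives lie on both sides of 0.

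Gcat and the glycine cleavage enzymes, which act with Tdh, did not share its arrangement. Tdh oxidizes threonine to an unstable ketoacid, which Gcat splits into glycine and acetyl-CoA, and the glycine cleavage system (Gldc, Amt, Gcsh and Dld) passes the carbon of glycine on to folate. Gcat had 35 and 58.1 FPKM under DMSO and 29.8 and 31.6 under PD. Gldc, the decarboxylase of the cleavage system, had 67.6 and 79.8 FPKM in DMSO and 48.1 and 41 in PD. For both genes the PD libraries lay below the DMSO libraries, the reverse of Tdh. The log2 difference of Gldc was -0.71 (SE 0.26; limma adjusted p = 0.837), from 1121, 1875, 370 and 137 recovered reads. Tdh was at 0.622 and 0.599 of the level of Gldc in the DMSO libraries and at 1.25 and 1.31 times its level in the PD libraries. These ratios within a library do not depend on its scaling. With Tdh higher and Gldc lower in both PD libraries, the ratios could not overlap between groups, which adds nothing to the values above. The difference between the genes was not tested. The ratio of Tdh to Gcat was 1.2 and 0.822 in DMSO and 2.02 and 1.7 in PD, and the same holds for it.

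**Figure D4:**
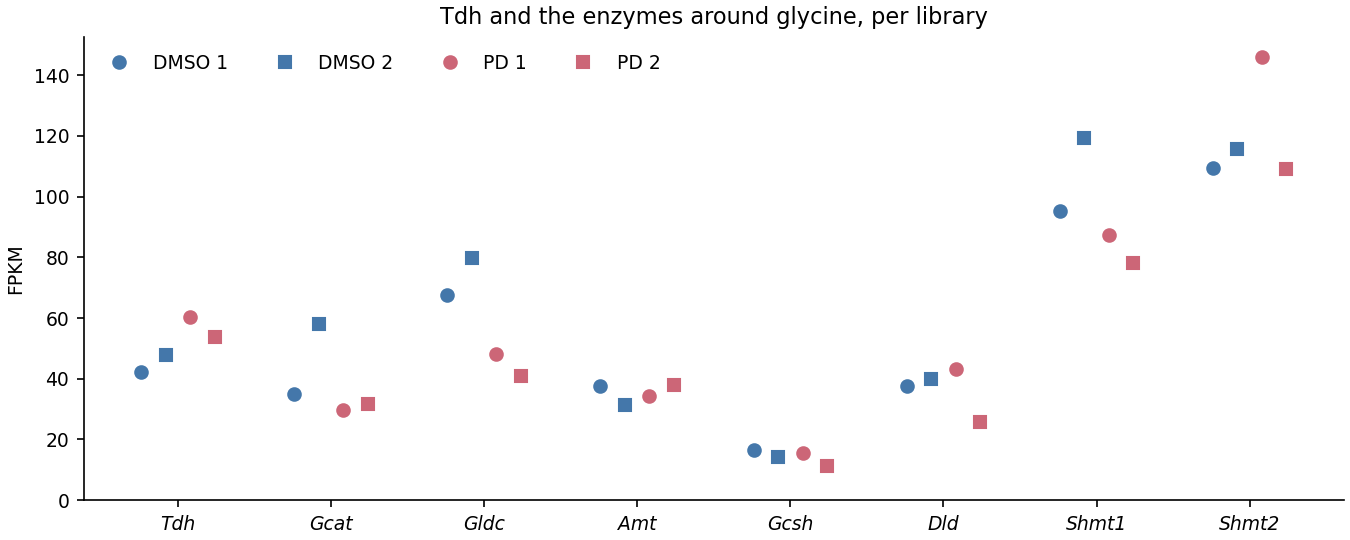
FPKM of Tdh, Gcat, the glycine cleavage genes Gldc, Amt, Gcsh and Dld, and the serine hydroxymethyltransferase genes Shmt1 and Shmt2 in each library (DMSO blue, PD red; circles replicate 1, squares replicate 2; linear axis from 0). Tdh has both PD points above both DMSO points, Gcat, Gldc and Shmt1 have both below, and Amt, Gcsh, Dld and Shmt2 overlap.

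Over the wider route from threonine and glycine to one-carbon units, 15 of 17 genes were tested and no common direction was seen. Of the 15, 2 had both PD values above both DMSO values, 3 had both below and 10 overlapped, or 13.3% and 20% against 17.5% and 18.3% over all genes. None passed, with 1 at an unadjusted p under 0.05 (limma; the same counts with voom for the 8 with recovered reads). The median log2 difference was 0.01, with the mean at -0.03. Shmt2, the mitochondrial enzyme that moves one-carbon units between serine and glycine, had 109 and 116 FPKM in DMSO and 146 and 109 in PD.

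Genes that depend on Dppa2 and Dppa4, those of the 2-cell state and of the germ line, were covered thinly. Of 28 such genes 27 were in the table, 9 of these were listed at 0 in every library, and 9 were tested. Only germline genes were among the 9 tested. Their median log2 difference was 0.00 and their mean -0.18. Both PD libraries were above both DMSO libraries for 1 of them (11.1%, against 17.5% of all genes) and below for 2 (22.2%, against 18.3%), and 6 overlapped. Dazl, Tdrkh and Prr19, which did not overlap, met the filter only through the group in which they were high. These counts therefore say nothing about the list. None passed and none had an unadjusted p under 0.05 (limma, or voom for 7). Prr19, a meiotic recombination gene, had 4.16 and 1.4 FPKM in DMSO and 0.853 and 0 in PD, from 21, 10, 2 and 0 reads. Tdrkh, a Tudor protein of the piRNA pathway, had 1.94 and 2.35 FPKM in DMSO and 0.927 and 0.306 in PD. Sycp3, a protein of the synaptonemal complex, had 3.99 and 3.35 FPKM in DMSO and 6.07 and 0 in PD. Dazl, an RNA-binding protein of germ cells, was the gene with both PD values higher, at 0.797 and 1.07 FPKM in DMSO and 2.06 and 1.58 in PD.

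A list of genes drawn up around Dppa3 and DNA methylation was covered for the most part. Of 14 genes 12 were tested, with a median log2 difference of 0.02. Tet3, at 0 to 0.141 FPKM, and Tdg, listed at 0 in every library, were not tested. In 10 the groups overlapped, while Tet2 had both PD libraries above and Dnmt3b both below, or 8.33% each way against 17.5% and 18.3% of all genes. None passed, with 1 at an unadjusted p under 0.05 (limma; the same counts with voom for 6). Uhrf1, the factor that Dppa3 displaces, had 34.2 and 51.1 FPKM in DMSO and 45.3 and 54 in PD. The maintenance methyltransferase Dnmt1 had 17.5 and 37.3 FPKM in DMSO and 21.9 and 27.4 in PD. For both genes the DMSO libraries differed from each other by more than the groups did. Tet2, an oxidase of methylated cytosine, had 2.94 and 3.47 FPKM in DMSO and 7.42 and 5.97 in PD, the log2 difference being 0.87 (SE 0.28; limma adjusted p = 0.823).

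Genes found with the Dppa family in screens for transcripts of embryonic stem cells, or for likeness to Pou5f1, give a last frame. Of 22 names, which hold Dppa5a also under its other name Esg1, 18 were tested, 4 of them being the Dppa genes themselves. Dppa1, another gene of the family name, was listed at 0 in all 4 libraries. Among the other 14 genes, 2 (Nanog and Zfp42) had both PD values above both DMSO values, against 17.5% of all genes, and none had both below, against 18.3%. Their median log2 difference was 0.13. None of the 18 passed, with 2 (Dppa3 and Nanog) at an unadjusted p under 0.05 by limma (561 of 9741 over all genes) and none with voom for 13 (524 of 8217). Nanog, the homeobox factor downstream of Dppa3 on chromosome 6, had 70 and 57.1 FPKM in DMSO and 136 and 116 in PD. Gdf3, on the other side of Dppa3, had 109 and 45.7 FPKM in DMSO and 141 and 82.5 in PD, and its groups overlapped. Both neighbours lay far above Dppa3 in every library, and the cause of its listed 0 in the PD libraries was not tested.

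**Figure D5:**
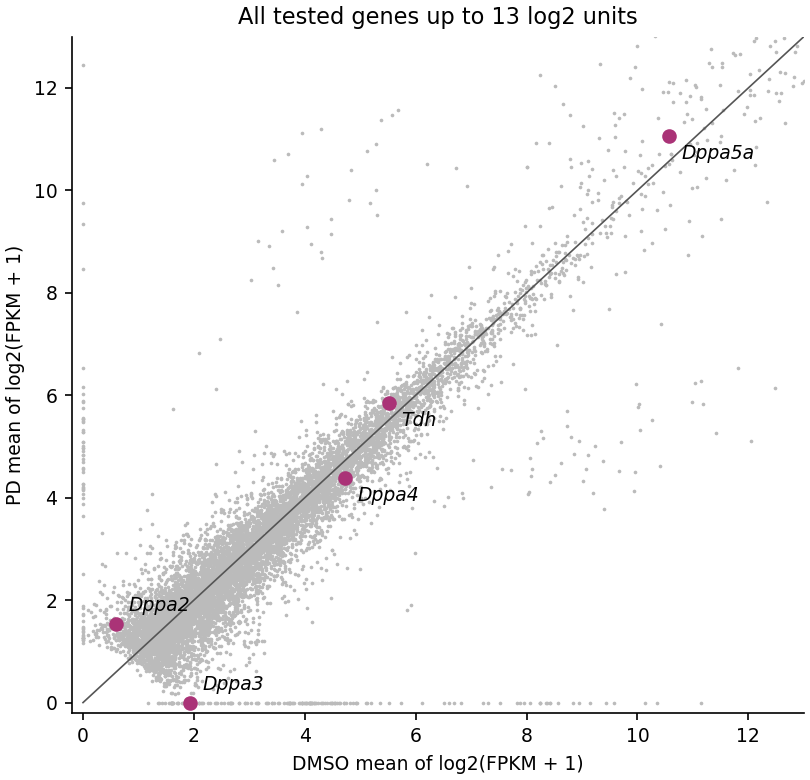
Mean log2(FPKM + 1) in PD against that in DMSO for the tested genes (grey points, axes up to 13, which leave out 198 genes) with the 5 named genes in purple and the line of equal levels. Tdh and Dppa4 lie close to the line within the bulk of genes, Dppa5a lies near its upper end, Dppa2 lies at the sparsely counted lower edge, and Dppa3 lies on the axis with the other genes listed at 0 in both PD libraries.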

How the data were processed

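Ribosome footprints were measured in 4 libraries, 2 in DMSO and 2 in PD. The values are FPKM with a lower and an upper bound per library, deposited by the authors in 1 table laid out as Cufflinks writes it, per the file headers. Cufflinks, STAR, Bowtie2, Trimmomatic and FastQC, with mm10 as build, are named by the submitters' processing notes. Their roles, versions and the treatment of reads that match several places are not given in the sources used here. Loci are those of the table with 1 added to each start. Gene types and neighbours came from RefSeq (GRCm38.p6).

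The log2(FPKM + 1) values of genes whose mean reached 1 FPKM entered lmFit and eBayes with a variance trend (limma 3.58.1, R 4.3.3; 2 residual degrees of freedom). Fold changes on this scale understate those of low genes. Relative depth was read from the commonest FPKM ratios, and reads are the smallest whole numbers that match within 0.02 reads. They were recovered for 70.9% of genes above 0 in all libraries, against 1.25% with wrong steps. Genes above 0 in fewer libraries had to match within 0.001 reads (81% of those above 0 in 2 libraries, against 3.84%). No molecular identifiers are named, so Poisson and binomial intervals (95%, exact) cover counting error only, with 3 reads as the floor. Both steps were tested on simulated data.

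The members and lists were chosen with earlier results of these data known. Named genes are the members, fixed partners, up to 3 members per list with the largest differences, cell type markers, and the 3 genes most like each member. A gene that this rule names is not reported here. Markers, neighbours and the genes at 0 were added where a result turned on them. Protein sequences were not used here. Alternatives changed the pseudocount, filter, scaling, variance model, replicate block, libraries and unit.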

Additional observations from a re-analysis of the deposited data

How the results depend on the processing

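Of the 5 genes, Dppa2, Dppa3, Dppa4 and Tdh kept their sign in every alternative that could be fitted and passed in none. The ranges of the log2 difference were 0.35 to 1.66 for Dppa2, -4.86 to -0.65 for Dppa3, -0.57 to -0.12 for Dppa4 and 0.23 to 0.43 for Tdh, with limma adjusted p-values from 0.415 to 1. Dppa5a turned to -0.048 with quantile normalization and ran from -0.10 to 1.08 when 1 library was left out; the cause was not tested. Dppa2 and Dppa3 were not tested with a filter of 5 FPKM, nor Dppa5a with voom. The number of all genes that passed (25) ran from 0 to 47 with 1 library left out (0 without either DMSO library, with 344 and 416 genes at an unadjusted limma p under 0.05) and was 0 with voom (524 at an unadjusted p under 0.05). Replicate numbers are shared between groups, but the deviations of libraries with the same number correlated at 0.10 across all tested genes and at 0.20 across the protein-coding ones, over 2 pairs, and no label pairs them. With the replicate block 19 genes passed, and the limma adjusted p was 0.677 for Dppa3 and 0.688 for Dppa2. The median of the 2-cell and germline list was 0.56 with a filter of 5 FPKM, which tests fewer genes. That of the KH-domain list was 0.67 and 0.20 with pseudocounts of 0.1 and 5, 0.091 without a filter, 1.08 with voom and 0.14 to 0.73 with 1 library left out. The medians of the one-carbon, DNA methylation, germline and screen lists changed sign in 4, 6, 6 and 2 of 14 alternatives. Dppa2 and Dppa3 rest on at most 10 recovered reads a library.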

Other observations

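For each gene, those with the most similar pattern over the 4 libraries are given as a description. Likeness is the root mean square difference of log2(FPKM + 1) after each gene's mean was taken away, among named genes with a mean between 0.25 and 4 times that of the member. With 4 libraries and many candidates, close matches are easy to find. Nearest to Tdh were Twf2, Vps25 and Pdlim1, with differences of 0.03 log2 units, and Vps25, a subunit of a membrane sorting complex, had 121 and 136 FPKM in DMSO and 175 and 162 in PD. Nearest to Dppa4 were Ssbp1, Eef1e1 and Nmral1, at 0.01 to 0.02 log2 units. Ssbp1, which coats single-stranded mitochondrial DNA, had 101 FPKM in DMSO replicate 1 and 67.2 to 73.6 in the other libraries. Nearest to Dppa2 were Usp20, Kirrel and Bend4, and the level of Usp20 was 0.765 and 0.733 FPKM in DMSO and 1.3 and 3.8 in PD, highest in the shallowest library like that of Dppa2. Nearest to Dppa3 were Etaa1os, Raet1b and Fbxo36, of which Etaa1os and Fbxo36 were also listed at 0 in both PD libraries. Dppa5a had only 50 candidates, and its nearest genes, Hist1h2an, H2ac8 and Hspa5, were farther away, at 0.27 to 0.33 log2 units.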
